A study of Mus musculus with 6 samples.

Results

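Broad Hdac1 peaks are defined here as intervals of the deposited Hdac1 peak list on chromosomes 1 to 19 whose end lies 1800 bp or more beyond their start. This rule found 1427 of the 16398 Hdac1 peaks on these chromosomes, or 8.70%, out of 16506 Hdac1 peaks in all. The other 14971 autosomal peaks are called narrower. The members were chosen by measured width, so their width, tags, fold enrichment and summit position in the Hdac1 list are given as descriptions. ChIP-seq, in which DNA bound by a protein is precipitated and sequenced, was done on J1 mouse embryonic stem cells that contain BirA, the bacterial enzyme that biotinylates tagged proteins. All libraries came from cells of this line kept in serum with leukemia inhibitory factor, with no treatment named in the labels. Per the labels, antibodies were used for Hdac1, Tgif1 and Smad3, whereas streptavidin beads were used for Tgif2 and Nanog. A BirA mock library is not analysed here, and no control background stands beside the values. Each factor had 1 library and 1 peak list, so no value has a replicate check, and no test between samples was possible. The 95% intervals are taken over peaks and cover counting error only.

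Hdac1 is an enzyme that removes acetyl groups from histones. It does not recognise DNA sequence itself and is brought to chromatin by corepressor complexes such as Sin3, NuRD and CoREST, through proteins that do bind DNA. Tgif1 and its paralog Tgif2 are homeodomain corepressors that bind Smad proteins and recruit histone deacetylases. Nanog helps to keep embryonic stem cells pluripotent, and Smad3 takes TGF-beta, Activin and Nodal signals to chromatin. A peak caller reports as 1 wide interval any stretch in which enriched windows touch, so a wide peak can be a single broad signal or several neighbouring sites.

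The broad peaks ran from 1800 to 5216 bp, with a median of 2075 bp, against a median of 1000 bp and a range of 349 to 1799 bp among narrower peaks. Most were not far above the limit. There were 858 of 2000 bp or more, 271 of 2500 bp or more, 106 of 3000 bp or more and 21 of 4000 bp or more. Together they covered 3.19 Mb, or 16.9% of the length of all autosomal Hdac1 peaks, and held 17.5% of the tags (sequenced fragments counted by the caller inside a peak). A broad peak held a median of 101 tags and a narrower one 45. Per length the classes were close, with a median of 47.2 tags per kb in broad peaks (95% interval 46.5 to 47.8) and 44.8 in narrower ones (44.6 to 45.0), a ratio of 1.05. The spread over broad peaks was wide, from 28.1 to 159 tags per kb. The fold enrichment that the authors' caller assigned to each peak had a median of 9.59 in broad and 10.8 in narrower peaks.

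Nearly every broad Hdac1 peak spanned a peak of a Tgif protein. A Tgif1 peak overlapped 1284 of the 1427 broad peaks by at least 1 bp, which was 89.98% (88.3 to 91.4), against 62.4% of narrower peaks (61.6 to 63.1). Over all autosomal Hdac1 peaks the share was 64.8%. For Tgif2 the counts gave 90.5% of broad peaks (88.9 to 91.95) and 66.5% of narrower ones (65.7 to 67.2), with 68.6% over all. At least 1 of the Tgif paralogs was present in 96.1% of broad and 75.5% of narrower peaks, and both were present in 84.4% and 53.4% of these classes. Nanog peaks were spanned by 56.8% of broad peaks (54.2 to 59.3) and 44.4% of narrower ones (43.6 to 45.2), with 45.5% over all. Smad3, whose list holds 1199 autosomal peaks, was spanned by 11.6% of broad peaks (10.01 to 13.3) and 5.34% of narrower ones (4.99 to 5.72), with 5.88% over all. The direction held for Tgif1, Tgif2 and Smad3 on 19 of 19 chromosomes and for Nanog on 18. When peaks under their list's median fold were left out, the differences in points were smaller. They were 15.3 points in place of 27.6 for Tgif1 and 9.34 in place of 24.1 for Tgif2. Nanog gave 3.33 in place of 12.4 and Smad3 3.64 in place of 6.22. Both shares fell with the shorter lists, to 50.0% of broad and 34.8% of narrower peaks for Tgif1. For Tgif2 they were 46.0% and 36.6%, for Nanog 27.3% and 23.9%, and for Smad3 6.31% and 2.67%. A longer interval meets more peaks by its length alone, so these shares do not separate length from occupancy.

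Counted per length, the broad peaks held fewer summits of most factors. A summit is the position of highest signal that the caller gives for a peak. Tgif1 summits numbered 0.460 per kb of broad Hdac1 peak and 0.579 per kb of narrower peak, a ratio of 0.795 (0.751 to 0.840). The ratio was 0.760 for Tgif2 (0.719 to 0.803) and 0.743 for Nanog (0.695 to 0.794). Smad3 had 0.0561 summits per kb in broad and 0.0511 in narrower peaks, a ratio of 1.10 whose interval of 0.928 to 1.29 includes 1. The part of peak length itself in these ratios was not tested.

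Several peaks of the same factor inside 1 Hdac1 peak made up a larger share of the broad class. By count, the narrower class held more Hdac1 peaks with repeats of at least 1 factor. A longer interval can hold more peaks by its length alone, and that part was not tested. Of the broad peaks, 487 or 34.1% spanned 2 or more peaks of at least 1 factor, against 569 or 3.801% of narrower peaks. Tgif1 was present 2 or more times in 15.3% of broad and 1.18% of narrower peaks, Tgif2 in 17.0% and 1.38%, Nanog in 14.8% and 1.60%, and Smad3 in 0.911% and 0.0601%. Repeats were most frequent for Nanog in both classes once presence is taken into account. Among broad peaks with any Nanog, 26.0% had 2 or more, compared with 18.7% for Tgif2, 17.1% for Tgif1 and 7.88% for Smad3. In narrower peaks these shares were 3.60% for Nanog, 2.07% for Tgif2, 1.90% for Tgif1 and 1.125% for Smad3. Nanog peaks had a median width of 633 bp, against 943 bp for Tgif2 and 933 bp for Tgif1. The part of these widths in the ranking was not tested. The largest number of peaks of 1 factor in a broad Hdac1 peak was 4 for Tgif1 and for Tgif2 and 3 for Nanog and for Smad3. Repeats of both paralogs were found in 98 broad peaks, which was 44.7% of the 219 with repeated Tgif1 and 40.5% of the 242 with repeated Tgif2.

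**Figure D1:**
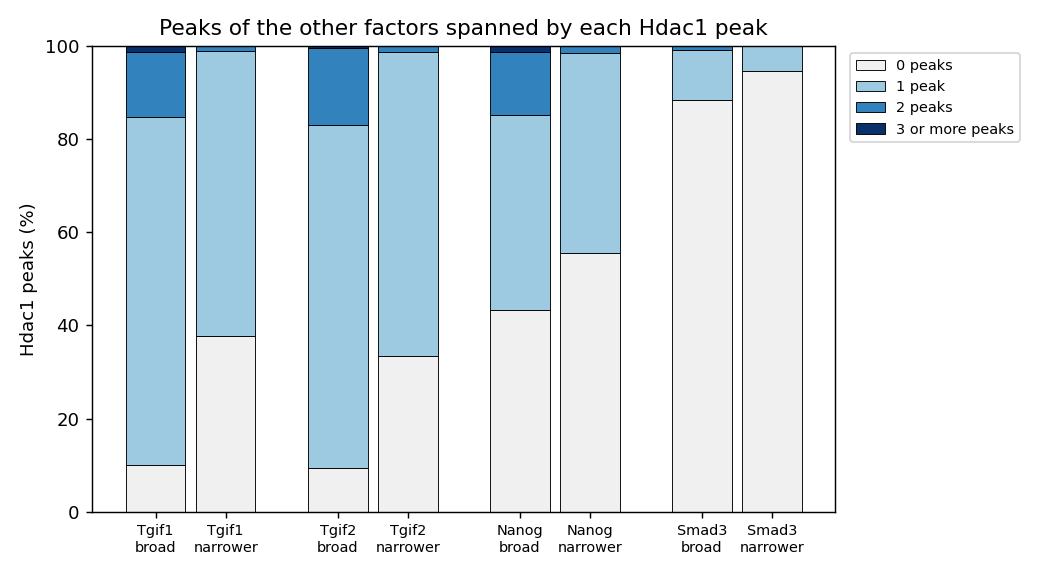
Share of Hdac1 peaks (vertical axis, %) that span 0, 1, 2 or 3 or more peaks of each other factor, with 1427 broad peaks on the left and 14971 narrower peaks on the right of each pair. The light part without any Tgif1 peak is 10.02% of the broad bar and 37.6% of the narrower bar, and the darker parts with 2 or more peaks are mainly visible in the broad bars.

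Where a broad peak held several summits of a factor, they lay about 1 kb apart. The median spacing of neighbouring summits was 1056.5 bp for Tgif1 over 206 pairs, 1159 bp for Tgif2 over 217 pairs and 1029 bp for Nanog over 211 pairs. The closest pair was 317 bp apart for Tgif1, 472 bp for Tgif2 and 490 bp for Nanog. By tags, which follow width, the Hdac1 summit tended to stand at the richest factor peak with a summit inside the interval. Overlapping factor peaks with a summit outside it were not ranked. Of 196 broad peaks with 2 or more Nanog summits inside, the Nanog summit nearest to the Hdac1 summit belonged to the Nanog peak with the most tags in 146, or 74.5% (68.0 to 80.1). The corresponding shares were 68.1% of 213 peaks for Tgif2 (61.5 to 74.0) and 62.0% of 192 peaks for Tgif1 (54.9 to 68.5). By fold in place of tags they were 63.8%, 58.7% and 54.7%, and the interval for Tgif1 by fold, 47.6 to 61.6, included an even split between 2 summits.

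Combinations of 3 or 4 factors made up a larger part of the broad class. A longer interval meets peaks of more lists by its length alone, and that part was not tested. The most frequent was Tgif1 with Tgif2 and Nanog, at 543 broad peaks or 38.1% (35.6 to 40.6), against 19.3% of narrower peaks (18.6 to 19.9). Tgif1 with Tgif2 alone followed at 35.7% of broad and 30.6% of narrower peaks. All 4 factors were spanned by 151 broad peaks, 10.6% (9.09 to 12.3), and by 3.43% of narrower peaks (3.15 to 3.74). Occupancy by a single factor was less common, with Tgif2 alone in 3.15% of broad and 8.40% of narrower peaks, and Nanog alone in 1.75% and 11.5%. No peak of any other list met 26 broad peaks, 1.82% (1.25 to 2.66), against 1812 narrower peaks or 12.1% (11.6 to 12.6). Smad3 came almost wholly with Nanog in both classes. In the broad class, 163 of the 165 peaks with Smad3 also spanned Nanog. Of 800 narrower peaks with Smad3, those without Nanog were 9 with both Tgif proteins, 5 with Tgif1, 3 with Tgif2 and 6 with Smad3 alone.

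Within the broad class, tag density went with the number of factors spanned. The median was 36.8 tags per kb in the 26 peaks without any other factor, 41.4 in 106 peaks with 1 factor, 44.2 in 591 peaks with 2, 49.8 in 553 peaks with 3 and 59.7 in 151 peaks with 4. The median width over the same steps was 1945.5, 1931.5, 2036, 2137 and 2229 bp, and the median fold was 7.54, 7.99, 9.13, 10.1 and 12.01. Broad peaks with Smad3 had a median of 59.1 tags per kb (57.4 to 61.4), compared with 46.1 (45.3 to 46.7) in those without it. With and without Nanog the medians were 50.5 and 43.5 tags per kb, with and without Tgif1 47.8 and 42.1, and with and without Tgif2 47.8 and 41.0. The ranges overlapped widely, for example 35.3 to 107 tags per kb with all 4 factors and 31.4 to 106 with none.

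The Hdac1 summit of a broad peak usually lay away from its middle, and so did the summits of equally wide peaks in the other lists. The median distance from summit to middle was 21.3% of the width in broad peaks (20.3 to 22.1), or 444 bp, against 11.6% in narrower peaks (11.4 to 11.8), or 112.5 bp. On 19 of 19 chromosomes this percentage was larger in the broad class. It also went with width below the limit, at 6.96% from 600 to 800 bp, 14.3% from 1000 to 1200 bp and 19.9% from 1500 to 1800 bp. Under 600 bp it was 10.3%. Summit and width come from the same peak calls, so the offset is a description only. In 23.9% of broad peaks (21.8 to 26.2) the summit fell in the outer 20% at either end, compared with 4.25% of narrower peaks (3.94 to 4.59). The central 20% of the interval held 22.1% of broad and 43.5% of narrower summits. In base pairs the summit kept a larger distance from the edge in broad peaks, with a median of 620 bp against 369 bp in narrower peaks. Within 300 bp of an edge lay 5.12% of broad and 23.0% of narrower summits. The outer 20% is longer in base pairs in a broad peak, and the part of width in these shares was not tested. The longer arm from summit to edge had a median of 1493 bp. In peaks of 1800 bp or more of the other lists, the median distance from summit to middle was also large. It was 21.8% of the width for Tgif1, 21.2% for Tgif2, 17.9% for Nanog and 25.4% for 7 Smad3 peaks.

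**Figure D2:**
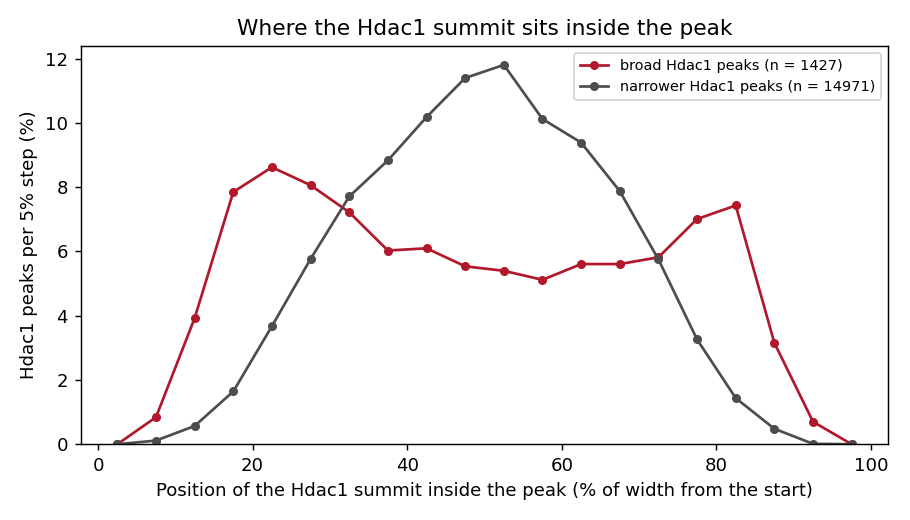
Position of the Hdac1 summit inside its peak (horizontal axis, % of the width from the start) against the share of peaks per step of 5% (vertical axis) for 1427 broad and 14971 narrower peaks. Broad peaks have a maximum on each side of the middle, 8.62% at 0.225 and 7.43% at 0.825 of the width, with a shallow dip between. The outermost step at each end holds 0 summits in both classes. Narrower peaks have a single maximum at the middle.

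A window of fixed size around the Hdac1 summit gives each class the same length to search, and the differences were then smaller. A Tgif1 summit lay within 250 bp of the Hdac1 summit in 58.2% of broad peaks (55.6 to 60.7) and 49.9% of narrower ones (49.1 to 50.7), a difference of 8.27 percentage points (5.57 to 10.9). Over all autosomal Hdac1 peaks the share was 50.6%. For Tgif2 the shares were 55.4% in broad and 52.1% in narrower peaks, with 52.4% over all and a difference of 3.25 points (0.536 to 5.93). Nanog gave 41.1% in broad and 39.7% in narrower peaks, with 39.8% over all, and the interval of the difference ran from -1.28 to 4.06 points. Smad3 gave 9.32% in broad peaks (7.92 to 10.9) and 5.07% in narrower ones (4.73 to 5.43), with 5.44% over all. The broad class had the higher Tgif1 share on 18 of 19 chromosomes, the higher Smad3 share on 16, the higher Tgif2 share on 13 and the higher Nanog share on 9. When Tgif2 peaks under their list's median fold were left out, the Tgif2 difference turned to -2.61 points (-4.96 to -0.143). Without chromosome 1 it was 2.69 points, with an interval of -0.172 to 5.53 that includes 0.

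Farther out the classes differed more, in bands that by the width rule lie more inside broad peaks than inside narrower ones. The nearer edge was a median of 620 bp from the Hdac1 summit in broad and 369 bp in narrower peaks. From 300 to 1000 bp from the Hdac1 summit there were 28.8 Tgif1 summits per 100 broad peaks and 11.6 per 100 narrower peaks. Tgif2 gave 28.9 and 13.5, Nanog 18.4 and 7.13, and Smad3 2.31 and 0.394 per 100 broad and narrower peaks. From 1000 to 3000 bp, a band that lies partly inside broad peaks, Tgif1 gave 38.3 and 17.7, Tgif2 44.5 and 19.2, Nanog 36.8 and 18.3 and Smad3 4.06 and 1.82. Among Hdac1 peaks that spanned the factor, the median distance between summits was 94 bp in broad peaks (81 to 103) and 60 bp in narrower ones (58 to 62) for Tgif1. It was 104.5 and 66 bp for Tgif2 and 67 and 47 bp for Nanog in broad and narrower peaks. For Smad3 it was 45 bp (34 to 56) and 44.5 bp (41 to 49), with intervals that overlap. The nearest summit was more than 500 bp away in 25.5% of broad and 8.35% of narrower peaks for Tgif1, and in 13.3% and 1.88% for Smad3. The width rule limits how far from the Hdac1 summit a spanned peak can lie, so these distances among spanning peaks are a description only.

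**Figure D3:**
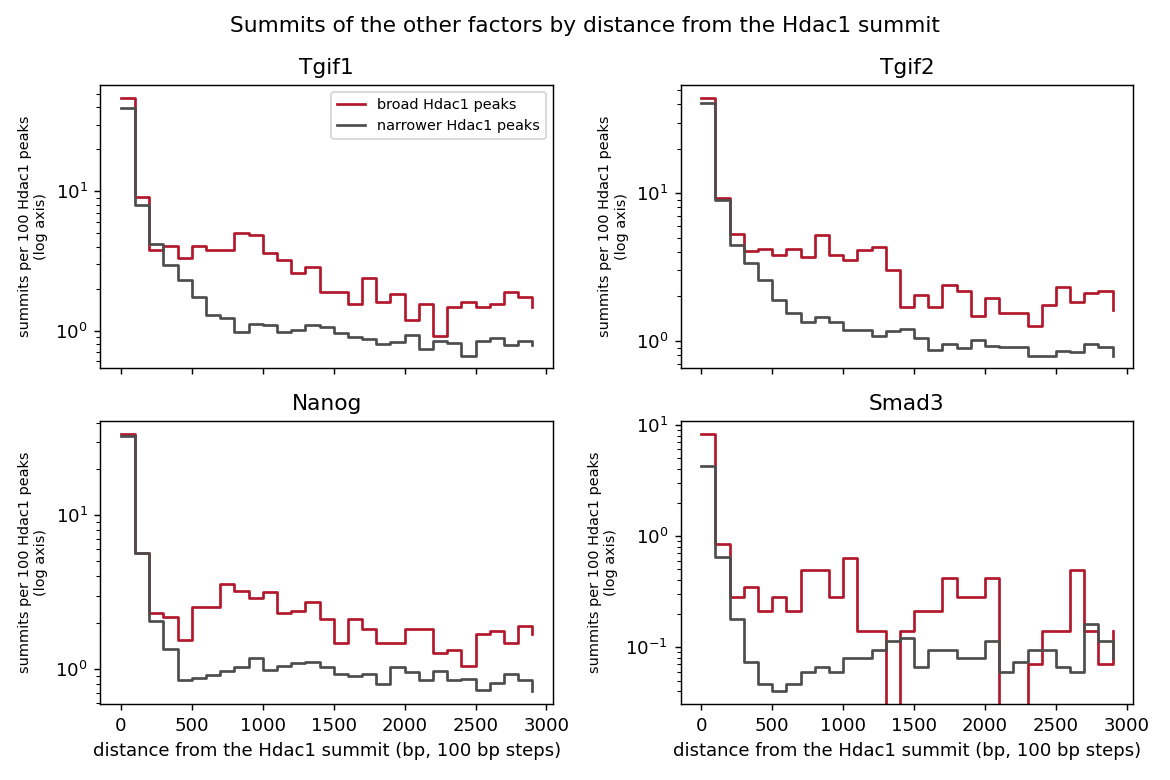
Summits of each other factor per 100 Hdac1 peaks (vertical log axis) by distance from the Hdac1 summit (horizontal axis, steps of 100 bp). The first step is similar in both classes for Nanog, at 33.9 for broad and 32.7 for narrower peaks, and the broad line lies above the narrower line between 300 and 1000 bp. Steps with 0 Smad3 summits in the broad class fall off the log axis.

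Inside broad peaks, summits of the other factors that stood away from the Hdac1 summit had lower fold for Nanog and Tgif1, and fewer of them had another factor beside them. Of 1013 Nanog summits inside broad Hdac1 peaks, 427 were more than 250 bp from the Hdac1 summit and 586 were within it. The Nanog peaks of the away group had a median of 32 tags (30 to 35) and 16.02-fold enrichment, against 53.5 tags (49 to 60) and 23.1-fold in those close by. For Tgif1 the median fold was 12.4 away (11.8 to 13.01) and 14.2 close by (13.7 to 14.8). A Tgif1 summit lay within 250 bp of 33.7% of the away Nanog summits (29.4 to 38.3) and of 68.3% of the close ones (64.4 to 71.9). With Tgif2 the shares were 29.3% and 66.4%. Away Tgif1 summits, 638 of 1468, had a Tgif2 summit within 250 bp in 52.2% (48.3 to 56.0) and a Nanog summit in 22.1% (19.1 to 25.5), compared with 74.2% and 48.4% for those close to the Hdac1 summit. Away Tgif2 summits, 693 of 1483, had Nanog nearby in 18.3% against 49.0% of close ones. For Smad3 the away group held 46 summits, and 71.7% of these (57.5 to 82.7) had a Nanog summit within 250 bp, against 90.2% of 133 close ones (84.0 to 94.2). In the away group 86.8% of Tgif1, 83.3% of Tgif2 and 85.01% of Nanog summits lay in the longer arm, which held 76.5% of the length beyond 250 bp. For Smad3 it was 36 of 46, or 78.3%, close to that share of the length.

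No summit of any other factor lay within 250 bp of the Hdac1 summit in 310 broad peaks, 21.7% of the class. Of these, 284 still spanned a peak of at least 1 factor, with the nearest summit a median of 552 bp away. Their tag density was lower, with a median of 43.4 tags per kb against 48.2 in the other broad peaks, at a similar width of 2053.5 and 2089 bp. Narrower peaks had a close summit of any factor nearly as often, in 77.8%, compared with 78.3% of broad peaks.

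When all Hdac1 peaks were ordered by width, the factors followed different courses around the summit. In the narrowest bin, under 600 bp with 316 peaks, a Tgif1 summit lay within 250 bp in 33.2%. This share was 53.8% from 1000 to 1200 bp, 57.3% from 1800 to 2200 bp and 62.3% (55.8 to 68.4) in the 223 peaks of 2600 bp or more. Nanog had its lowest share in peaks of intermediate width, with 48.1% under 600 bp, 34.5% from 1000 to 1200 bp, 33.3% from 1500 to 1800 bp, 37.3% from 1800 to 2200 bp and 54.7% (48.2 to 61.1) from 2600 bp. Smad3 had 4.43% under 600 bp, 7.02% from 1800 to 2200 bp and 13.9% (9.97 to 19.1) from 2600 bp. Around the width limit the values were close. The 308 peaks from 1800 to 1900 bp and the 344 peaks from 1700 to 1800 bp had Tgif1 overlap of 84.7% and 86.3%, Nanog overlap of 49.7% and 48.0%, 45.0 and 44.2 tags per kb and a summit offset of 20.5% and 21.8% of the width.

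**Figure D4:**
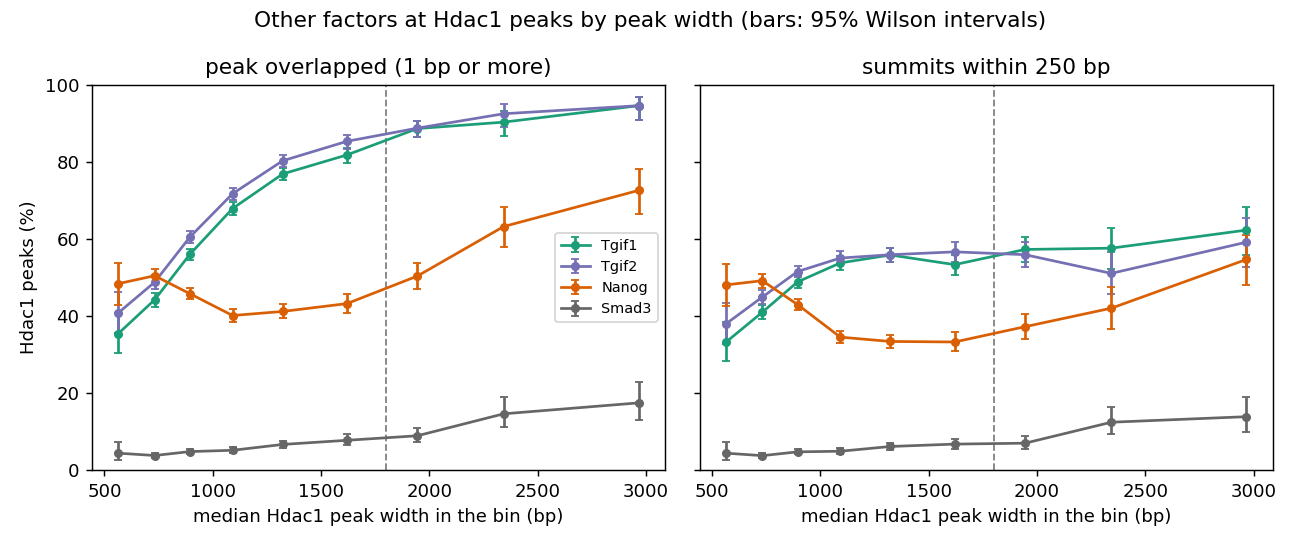
Share of Hdac1 peaks (vertical axis, %) with each other factor in 9 bins of peak width (horizontal axis, median width of the bin in bp), by overlap of peaks on the left and by summits within 250 bp on the right, with 95% Wilson intervals and a dashed line at 1800 bp. Overlap with Tgif1 climbs to 94.6% in the widest bin, while the share with a Tgif1 summit close by reaches 62.3%, and Nanog is lowest at intermediate widths.

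How broad peaks compare with narrower ones depended on which measure of Hdac1 strength was held alike. Within 5 bins of equal size by tags per kb, the intervals of the classes overlapped for close Nanog summits in each bin, with 25.9% of broad and 29.2% of narrower peaks in the second bin and 63.8% and 65.1% in the highest. Close Smad3 summits were more frequent in the broad class of the highest bin, at 27.3% (22.7 to 32.4) of 326 broad peaks and 15.8% (14.6 to 17.2) of 2954 narrower peaks. In the fourth bin Smad3 gave 8.38% (5.93 to 11.7) and 4.86% (4.14 to 5.70). Tgif1 was more frequent near broad summits in the lowest bin, at 44.1% against 30.9% of narrower ones, and in the fourth, at 65.6% against 56.5%, but not in the highest, at 69.0% and 68.9%, and its intervals overlapped in the second and the third. For Tgif2 the intervals overlapped in each of the 5 bins, with 34.1% of broad and 33.8% of narrower peaks in the lowest and 69.3% and 69.6% in the highest. The highest bin has no upper limit and runs to 802 tags per kb.

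Within 5 bins of equal size by fold, close summits of Tgif1, Tgif2 and Smad3 were more frequent in the broad class where fold was high. For Smad3 the intervals were apart from the second-lowest bin up. There it gave 7.62% (5.13 to 11.2) of broad and 2.55% (2.04 to 3.18) of narrower peaks. For Tgif1 they were apart from the third bin up, with 59.9% (54.1 to 65.3) and 51.4% (49.6 to 53.2) in the third. For Tgif2 this held from the fourth bin up. In the highest bin, a Tgif1 summit was close in 73.8% of 187 broad peaks (67.1 to 79.6) and 53.8% of 3093 narrower ones (52.04 to 55.6). Tgif2 gave 73.3% (66.5 to 79.1) and 55.5% (53.7 to 57.2), and Smad3 19.3% (14.2 to 25.5) and 10.6% (9.57 to 11.7), in broad and narrower peaks of that bin. Nanog gave 63.1% (55.99 to 69.7) and 56.2% (54.4 to 57.9), with intervals that overlap. In the lowest bin the intervals of the classes overlapped for all 4 factors, with Tgif1 at 46.1% of broad and 43.2% of narrower peaks.

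At like numbers of tags the order turned. Among Hdac1 peaks with 80 to 120 tags, a window set with the data in view, 780 were broad and 970 narrower, and the broad ones had 46.6 tags per kb against 62.8. There a Nanog peak was spanned by 52.2% of broad peaks (48.7 to 55.7) and 71.6% of narrower ones (68.7 to 74.4). Smad3 was spanned by 6.92% (5.34 to 8.92) of broad and 21.3% (18.9 to 24.0) of narrower peaks. Close summits were less frequent in broad peaks for Tgif1, at 59.4% and 72.7%, for Tgif2, at 56.5% and 72.1%, and for Nanog, at 36.8% and 62.5%. Overlap with Tgif1, at 91.2% and 89.7%, and with Tgif2, at 92.4% and 90.3%, differed by less than the intervals. The part of tag density in this comparison was not tested.

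**Figure D5:**
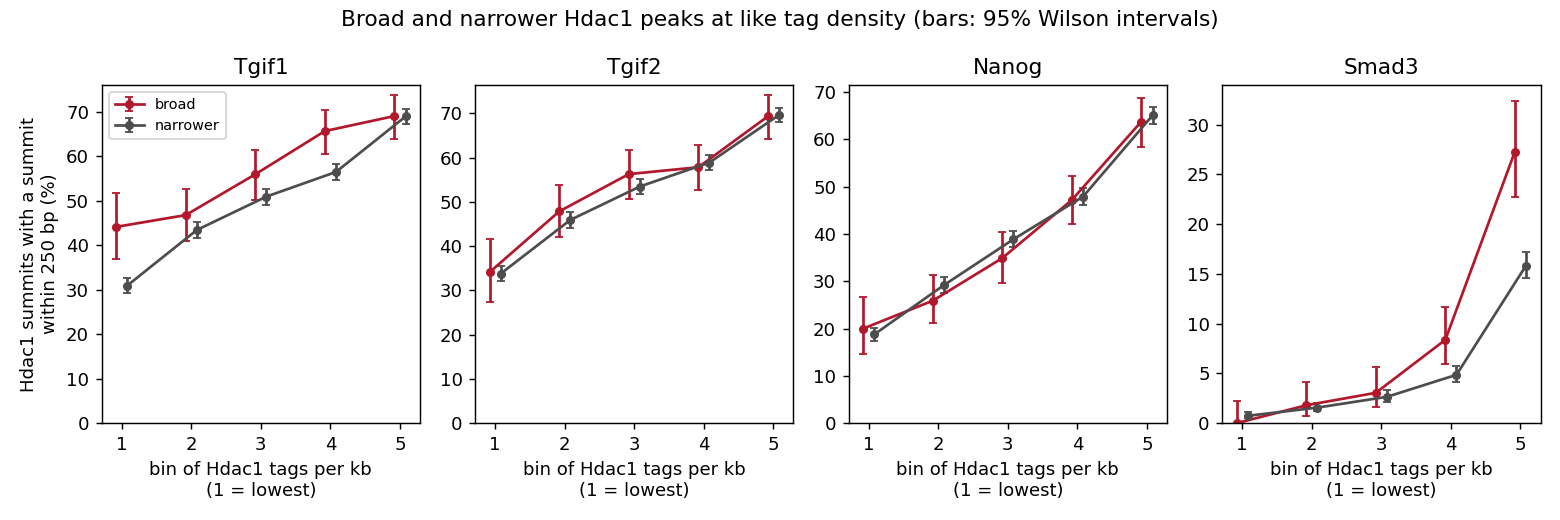
Share of Hdac1 summits with a summit of each other factor within 250 bp (vertical axis, %) in 5 bins of Hdac1 tags per kb (horizontal axis, lowest to highest) for broad and narrower peaks, with 95% Wilson intervals. Nanog runs alike in both classes, whereas Smad3 reaches 27.3% of broad and 15.8% of narrower peaks in the highest bin.

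The other factors' own peaks were also wide at broad Hdac1 peaks. Tgif1 peaks that met a broad Hdac1 peak had a median width of 1431 bp (1390 to 1463), against 933 bp (924 to 941) for those that met a narrower Hdac1 peak and 867 bp for those that met none. Tgif2 gave 1468, 978 and 858 bp, Nanog 821, 710 and 577 bp, and Smad3 800, 704 and 576 bp for the same 3 kinds. A Tgif1 peak of 1800 bp or more was present at 32.4% of broad (30.0 to 34.8) and 2.91% of narrower Hdac1 peaks, and such a Tgif2 peak at 36.7% and 4.01%. Of 1015 Tgif1 peaks of at least 1800 bp, 456 or 44.9% met a broad Hdac1 peak, although 9.28% of all Tgif1 peaks did. Of 126 such Nanog peaks 64 did, or 50.8%, against 6.15% of all Nanog peaks. A wider interval on either side raises the chance of meeting, and that part was not tested.

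The other factors' fold enrichment was lower at broad than at narrower Hdac1 peaks for Nanog, Tgif1 and Tgif2. Nanog peaks at broad Hdac1 peaks had a median fold of 19.1, against 25.015 at narrower ones and 22.5 where Hdac1 was absent. For Tgif1 the medians were 13.4, 14.2 and 11.9, for Tgif2 13.2, 14.9 and 13.1, and for Smad3 9.90, 9.57 and 9.34. By tags, which follow width, each factor had its highest median at broad Hdac1 peaks, with 92, 56 and 46 tags for Tgif1 and 42, 39 and 24 for Nanog. Tags per kb of the factor's own peak were lower at broad than at narrower Hdac1 peaks for Nanog only, with medians of 51.7 and 56.2. The medians were 63.7 and 59.4 for Tgif1, 65.2 and 62.6 for Tgif2, and 45.8 and 38.0 for Smad3. Where present, the intervals of the Tgif proteins filled most of a broad peak, but a larger part of a narrower one. When a Tgif2 peak was present, its intervals covered a median of 80.4% of the broad Hdac1 peak, and Tgif1 77.7%, whereas Nanog covered 46.4% and Smad3 37.0%. In narrower Hdac1 peaks the medians were 87.0% for Tgif2, 84.1% for Tgif1, 73.7% for Nanog and 65.6% for Smad3. Together the 4 lists covered 90% or more of the length in 749 broad peaks, 52.5%, and in 47.2% of narrower peaks.

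Broad peaks had other Hdac1 peaks nearby more often. The gap to the nearest Hdac1 peak had a median of 7.39 kb for broad peaks (6.47 to 8.02) and 13.7 kb for narrower ones (13.2 to 14.2). Another Hdac1 peak lay within 1 kb of 21.2% of broad (19.2 to 23.4) and 13.2% of narrower peaks. The share of autosomal Hdac1 peaks that were broad ran from 5.20% on chromosome 13, 34 of 654, to 12.9% on chromosome 1, 150 of 1163. Chromosome 11 held the most, 153 broad peaks.

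Positions are given as deposited in the mm9 build, with starts whose count from 0 or 1 is not stated, and no gene is named because annotation of that build was not used here. The widest, chr1:154938574-154943790, was 5216 bp long with 321 tags and 7.93-fold enrichment, and spanned 3 Tgif1, 2 Tgif2 and 3 Nanog peaks. Its Hdac1 summit lay 4103 bp from the start, 59 bp from a Tgif1 summit, 66 bp from a Tgif2 summit and 58 bp from a Nanog summit. That Nanog peak, at 29.6-fold and 314 tags, was the strongest of the 3, the others having 40 and 23 tags. The next widest, chr1:72869935-72875150, was covered by a single Tgif2 peak of 5170 bp, 3 Tgif1 peaks and 2 Nanog peaks. Its Hdac1 summit stood 18 bp from the stronger Nanog summit (39.9-fold) and 2952 bp from the Tgif2 summit.

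Not all of the widest peaks were rich in other factors. At chr17:15126407-15131345, 4938 bp long with 313 tags at 5.81-fold, no Tgif1 or Tgif2 peak was present and a single Nanog peak of 31 tags covered 10.7% of the length. At chr6:47624786-47629199, 4413 bp long with 316 tags, 1 Tgif1 and 1 Tgif2 peak were present without Nanog. Tgif1 and Tgif2 were spanned by 9 of the 10 widest, Nanog by 7 and Smad3 by 1. The Smad3 case, chr12:12946804-12951112, carried its Nanog peak of 82.1-fold and 502 tags with a summit 1592 bp from the Hdac1 summit, next to the Smad3 summit at 1504 bp. There the Hdac1 summit lay 10 bp from the stronger Tgif1 summit (32.2-fold) and 24 bp from the strongest Tgif2 summit (26.6-fold). The remaining 5 of the 10 were chr11:98822584-98827411, chr11:117640888-117645451, chr11:69230132-69234506, chr4:133571960-133576286 and chr5:3340603-3344914, with 48.9 to 60.1 tags per kb.

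The broad peaks with the most peaks of other lists carried 9 each. At chr11:98822584-98827411 there were 4 Tgif1, 3 Tgif2 and 2 Nanog peaks, and the Hdac1 summit stood 37 bp from the strongest Tgif1 summit (35.4-fold) and 34 bp from the strongest Tgif2 summit (15.1-fold). At chr2:152002623-152006709 there were 3 Tgif1, 2 Tgif2, 3 Nanog and 1 Smad3 peaks, and the Hdac1 summit lay 1 bp from the summit of the Nanog peak with the most tags (108, against 27 and 31). At chr4:135134266-135137014 there were 3 of Tgif1, of Tgif2 and of Nanog in 2748 bp, although 1 summit of each lay outside the interval. The peaks with these outside summits had the most tags, at 139 for Tgif1, 96 for Tgif2 and 118 for Nanog. Those nearest to the Hdac1 summit had 81, 49 and 63 tags. The widest peak and chr12:12946804-12951112 followed with 8 each.

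At the highest folds in the class the Hdac1 summit lay close to summits of both Tgif proteins. At chr15:76352319-76354675 the Hdac1 enrichment was 61.5-fold, with a Tgif1 summit at 21 bp and a Tgif2 summit at 6 bp, and the Nanog summit 1609 bp away. At chr4:126850311-126852246 it was 57.1-fold, with 2 Tgif1 and 2 Tgif2 peaks, the nearest at 6 and 14 bp, and Nanog 985 bp away beside the second pair. Then came chr1:90564720-90566719 (35.1-fold, with a Nanog peak of 195-fold at 17 bp), chr17:56855641-56857894 (33.6-fold) and chr6:38383215-38385211 (32.3-fold), and these last were without Nanog. In all 5 the Tgif1 summit was within 26 bp and the Tgif2 summit within 77 bp of the Hdac1 summit. By tags the first was chr4:146683657-146687819, with 341 tags, Tgif1 at 3 bp, Nanog at 49 bp and Tgif2 at 66 bp, followed by 4 of the 10 widest.

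Among the 26 broad peaks that met no other list, the widest was chr15:101003926-101006464, 2538 bp long with 97 tags at 5.57-fold, and its nearest summit of another factor was a Nanog summit 6844 bp away. At chr1:153391047-153393549 the density reached 58.8 tags per kb at 16.2-fold, with the nearest Tgif2 summit 26596 bp away. At chr12:88222362-88224704 it was 33.7 tags per kb. The narrowest members, chr14:67626547-67628347 and chr7:19608361-19610161 at 1800 bp and chr11:88920885-88922686, 1 of 3 tied at 1801 bp, held 77, 64 and 80 tags. Of the 6 peaks tied as the widest outside the class, at 1799 bp, chr13:29039078-29040877, chr2:75797459-75799258 and chr3:152058524-152060323 held 76, 72 and 69 tags.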

How the data were processed

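Per the submitters' processing notes, reads were handled with BWA 0.5.9-r16 and MACS on the mm9 build. The control library, the thresholds, the MACS version and the library depths are not given in the sources used here. The deposited lists have no header, so columns were read from their values. The deposited fold enrichment is a ratio per peak from the authors' caller. The deposited tag count is a whole number per peak. The last 3 columns were equal in every peak and were taken as the summit. From these, widths, tags per kb, overlaps of at least 1 bp, summits inside peaks and summit distances were computed on chromosomes 1 to 19.

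Shares have 95% Wilson intervals, differences Newcombe intervals, rates exact Poisson-based intervals and medians order-statistic intervals. With 1 library per factor no p-value was computed. The members, measures and limits were chosen with earlier results of these data known. The named regions are the 10 widest broad peaks, the 5 with the most other peaks, the 5 highest in fold, the 5 highest in tags, the 3 widest without other peaks and 3 on each side of the width limit. Alternatives changed the width limit, the overlap rule, the summit window, the strength of the peaks and the chromosomes used. Overlap and interval functions were tested on simulated data. No sequence is shown, since the sequence tables used here are of another build. Intervals used SciPy 1.17.1 and statsmodels 0.14.6, tables pandas 2.3.3 with NumPy 2.4.6 under Python 3.11.15, and plots matplotlib 3.10.9.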

Additional observations from a re-analysis of the deposited data

How the results depend on the processing

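Under the alternatives, 43 values stayed inside the 95% interval of the reported value, 33 left it and 6 reversed a difference whose interval did not include 0. All differences below are broad minus narrower, in percentage points. Only Hdac1 peaks with 80 to 120 tags, chosen after the data were seen, gave overlap differences of 1.46 for Tgif1, 2.13 for Tgif2, -19.5 for Nanog and -14.4 for Smad3, and close-summit differences of -13.3, -15.5, -25.7 and -14.5. With other peaks at or above their list's median fold, overlap gave 15.3, 9.34, 3.33 and 3.64 in the same order, close summits 3.66, -2.61, -1.85 and 2.54, and the ratio of summits per kb 0.728 for Tgif1, 0.632 for Tgif2 and 0.568 for Nanog. With broad meaning 2500 bp or more, overlap gave 28.1 for Nanog and 11.7 for Smad3, close summits 11.9, 6.38, 15.4 and 8.73, the ratios per kb 0.731, 0.680, 0.848 and 1.30, the tags per kb ratio 1.10 and the summit offset 22.6% of the width. With 1500 bp, overlap gave 25.6 for Tgif1, 5.52 for Nanog and 4.59 for Smad3, close summits -3.17 for Nanog, the Nanog ratio 0.679 and the tags per kb ratio 1.03. A summit distance of 500 bp gave 6.91 for Tgif2. Without the 1% of Hdac1 peaks with the most tags, the tags per kb ratio was 1.03. The causes were not tested. Requiring overlap of 50% of the shorter peak, or the other summit inside the Hdac1 peak, a summit distance of 100 bp, and leaving out chromosome 1 moved no value out of its interval, although without chromosome 1 the interval of the Tgif2 close-summit difference, -0.172 to 5.53, came to include 0. No paired analysis was possible because each factor has 1 library. Nearest genes and gene lists, which need an annotation of the mm9 build, were not run.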

Other observations

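Peaks of 1800 bp or more were nearly lacking off the autosomes. The X chromosome held 95 Hdac1 peaks, of which 0 reached this width (Wilson interval 0 to 3.89%), the widest being 1574 bp, compared with 8.70% of the autosomal peaks. The only such peak off chromosomes 1 to 19 was on the unplaced Un_random contig, 3106 bp wide with 101 tags per kb, and it met a Tgif2 and a Nanog peak.

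The summit of a broad Hdac1 peak lay on the lower-coordinate side of the middle in 54.2% of cases (51.6 to 56.7), against 49.9% of narrower Hdac1 peaks (49.1 to 50.7). Peaks of 1800 bp or more in the other lists gave 50.8% for Tgif1 (47.8 to 53.9), 51.9% for Tgif2 (49.1 to 54.7) and 54.8% for Nanog (46.1 to 63.2), with intervals that include an even split.

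The densest broad peaks, singled out after their values were seen, included places with few other factors. The highest density was 159 tags per kb at chr8:19862251-19864133, with 299 tags at 8.11-fold and 1 Tgif1 peak. On the same chromosome, chr8:19698026-19700059 had 106 tags per kb at 8.39-fold and met no other list. The second highest, chr17:3081216-3083420, had 139 tags per kb at 6.32-fold with 1 Tgif1 and 2 Tgif2 peaks. The folds of these 3 peaks were under the median of 9.59 for broad peaks. The third highest, chr3:96146443-96148276, had 107 tags per kb at 18.0-fold and spanned all 4 factors. So did chr1:120971410-120974098, with 99.3 tags per kb at 14.3-fold.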
